A study of Mus musculus with 4 samples.

Results

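The disaccharidase and sugar transport genes of the intestinal brush border were followed over 4 arrays of laser-captured epithelium. They are 7 genes chosen by name for their function, with earlier results of these data known. They comprise the disaccharidases Sis, Lct and Treh, the sugar transporters Slc5a1, Slc2a2 and Slc2a5, and the fructose kinase Khk. Probe sets were assigned to them by the gene symbol of the platform annotation, which gave 7 probe sets for 6 of the 7 genes, out of 45101 probe sets and 18193 named genes in the table. The level of Sis, sucrase-isomaltase, is not analysed here, and its promoter alone was searched for motifs.

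RNA came from epithelial cells cut by laser from frozen 10 µm sections. The 4 groups were ileum of germ-free C57BL/6 mice, which live without microbes, ileum of wild type C57BL/6 mice, proximal colon of germ-free mice and proximal colon of wild type mice. Each group was 1 array, hybridised with RNA pooled from about 16000 cells of 4 mice (about 4000 per mouse) and amplified in 2 rounds from 40 ng. No age, sex or diet is given in the sources used here, and hematoxylin staining is mentioned for the germ-free captures only, so staining and germ-free state cannot be told apart. With 1 array of pooled RNA per group there was no replicate, no p-value was computed, and precision is limited by having 4 arrays in all.

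Disaccharidases are enzymes anchored in the apical membrane of enterocytes that split dietary disaccharides into single sugars: trehalase splits trehalose, lactase splits lactose, and sucrase-isomaltase splits sucrose and starch fragments. Glucose and galactose then enter the cell with sodium through SGLT1, encoded by Slc5a1, while fructose enters through GLUT5, encoded by Slc2a5. GLUT2, encoded by Slc2a2, lets single sugars out at the basolateral side, and ketohexokinase, encoded by Khk, phosphorylates fructose inside the cell. These activities are known to be highest in the proximal and middle small intestine and low in the colon.

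Values are probe set intensities, quantile-normalized between arrays. A value under 62.4, the pooled median of all arrays, was treated as lying at a floor below which levels were not compared. A fold against an array at the floor is a lower bound and is written as "at least". Of the 6 genes with a probe set, 2 were above the floor on all 4 arrays (Slc5a1 and Khk), 5 on at least 1 array, and 1 (Lct) on 0 arrays. In bulk RNA, fewer cells of a type and less RNA per cell cannot be told apart.

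The captures carried epithelial markers, while markers of region separated them in part. All 6 pan-epithelial markers read between 5814 (Vil1) and 16920 (Krt8) on every array. The ileal bile acid binding protein gene Fabp6 read 18190 on the germ-free and 16920 on the wild type ileum array, and 6008 on the germ-free and 767 on the wild type colon array. The colonic carbonic anhydrase gene Car1 read 32.5 and 64.7 on the germ-free and wild type ileum arrays. On the germ-free and wild type colon arrays it read 12438 and 14384. In wild type mice 4 of 5 ileal enterocyte markers were at least 2-fold higher and 5 of 7 colonocyte markers lower in ileum. In germ-free mice 2 of 5 ileal enterocyte markers were higher, and of 7 colonocyte markers 3 were lower and 1 higher. The last was Slc37a2, at 133 on the germ-free ileum and 38.7 on the germ-free colon array. The log2 ratio of 5' to 3' signal of the Gapdh and Actb controls, a sign of RNA length, differed, germ-free minus wild type, by -0.48 and -0.12 in colon and by -1.10 and -1.20 in ileum. Between regions, ileum minus colon, it differed by 0.01 and 0.38 in germ-free and by 0.64 and 1.46 in wild type mice. The part of RNA length and staining in the values below was not tested.

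Ileal epithelium carried far more signal for trehalase, GLUT5 and ketohexokinase than colonic epithelium, and more for SGLT1, in germ-free and in wild type mice alike. Of the 6 genes, 4 (Treh, Slc5a1, Slc2a5 and Khk) were at least 2-fold higher in ileum in germ-free mice, the same 4 in wild type mice, and 0 were at least 2-fold lower in either state. Among all measured genes, 7.37% of 11986 were at least 2-fold higher in ileum in germ-free mice and 5.88% were at least 2-fold lower. In wild type mice 6.04% of 12000 were higher and 5.93% lower. The median over the 6 genes was 1.78 log2 in germ-free and 1.86 log2 in wild type mice, against 0.04 and -0.01 over all measured genes. Genes at the floor on both arrays counted as 0 change, and bounds, 2 in each comparison, were taken at their value. These 2 comparisons share no array.

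**Figure D1:**
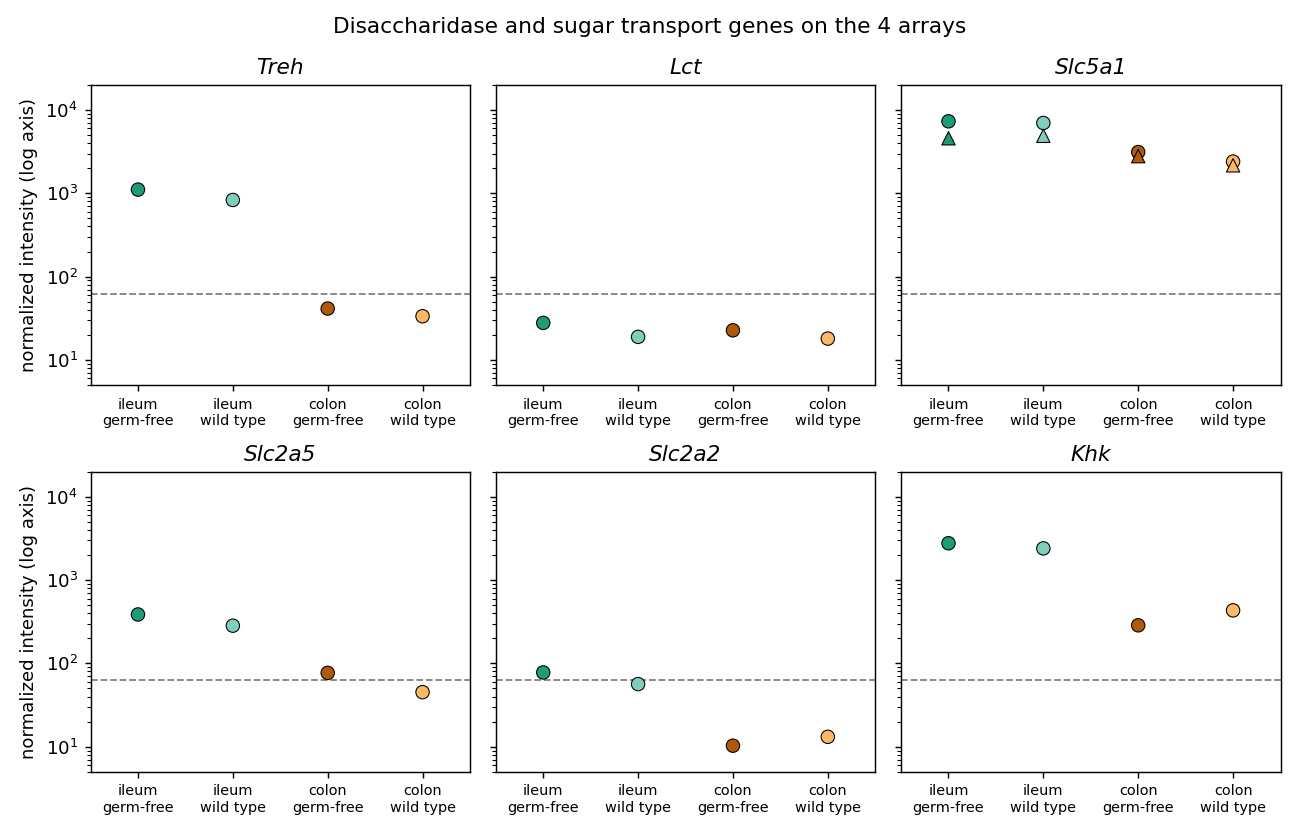
Normalized intensity (log axis) of the 6 genes on the 4 arrays. Circles are the brightest probe set of a gene, triangles the other probe set of Slc5a1, and the dashed line is the floor of 62.4. Treh, Slc5a1, Slc2a5 and Khk lie higher on both ileum arrays than on both colon arrays, and Lct lies under the floor on all 4.

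Treh (Entrez gene 58866, chr9:44673233-44686305 in GRCm38.p6), which encodes the enzyme that splits trehalose, the sugar of fungi and insects, had the largest regional difference of the set. It read 1108 on the germ-free and 832 on the wild type ileum array, against 41.4 on the germ-free and 33.5 on the wild type colon array, both of these under the floor. The ileal level was thus at least 17.7-fold higher than the colonic one in germ-free mice (log2 change of 4.15 or more), and 36 of 11986 measured genes had a larger value. In wild type mice it was at least 13.3-fold higher (log2 change of 3.74 or more), with 50 of 12000 genes above it. The ileum and colon values were well separated in either state.

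Khk (Entrez gene 16548, chr5:30921436-30931248), the first enzyme of fructose breakdown, read 2766 and 2401 on the germ-free and wild type ileum arrays, against 286 and 433 on the germ-free and wild type colon arrays. The gene was 9.66-fold higher in ileum in germ-free mice (log2 3.27) and 5.55-fold in wild type mice (log2 2.47). All 4 values were above the floor, so these are folds and not bounds. Slc2a5 (Entrez gene 56485, chr4:150119344-150144168), the fructose transporter that feeds this enzyme, read 387 and 284 on the germ-free and wild type ileum arrays, against 76.9 and 45.1 on the germ-free and wild type colon arrays. It was 5.03-fold higher in ileum in germ-free mice (log2 2.33) and at least 4.54-fold in wild type mice (log2 2.18 or more), where the colon value lay under the floor. The germ-free colon value was close to the floor, so that fold is sensitive to where the floor is set: with the floor at the pooled 75th percentile of 259, the log2 values were 0.58 in germ-free and 0.13 in wild type mice.

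Slc5a1 (Entrez gene 20537, chr5:33104219-33162699), the sodium-driven entry route of glucose and galactose, was above the floor on every array, colon included. Its brighter probe set read 7318 and 6989 on the germ-free and wild type ileum arrays, against 3128 and 2404 on the germ-free and wild type colon arrays. Its other probe set read 4582 and 4905 on the germ-free and wild type ileum arrays, against 2795 and 2169 on the germ-free and wild type colon arrays. In both, each ileum array stood above each colon array. In germ-free mice the ileal level was 2.34-fold higher by the brighter probe set (log2 1.23), but the other gave a log2 change of 0.71 and so was not past 2-fold. In wild type mice both probe sets were past 2-fold, at log2 1.54 and 1.18.

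Slc2a2 (Entrez gene 20526, chr3:28697903-28728361), the basolateral exit route, was dim throughout. It read 77.9 and 56.4 on the germ-free and wild type ileum arrays, against 10.3 and 13.1 on the germ-free and wild type colon arrays. The germ-free ileum array alone was above the floor, which gives a bound of at least 1.25-fold against germ-free colon and no comparison in wild type mice. Lct (Entrez gene 226413, chr1:128284756-128328318), lactase, read 27.9 and 18.9 on the germ-free and wild type ileum arrays, against 22.7 and 18.1 on the germ-free and wild type colon arrays. All 4 values lay under the floor, so no level of Lct was compared. A probe set under the floor does not show that a transcript was absent.

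**Figure D2:**
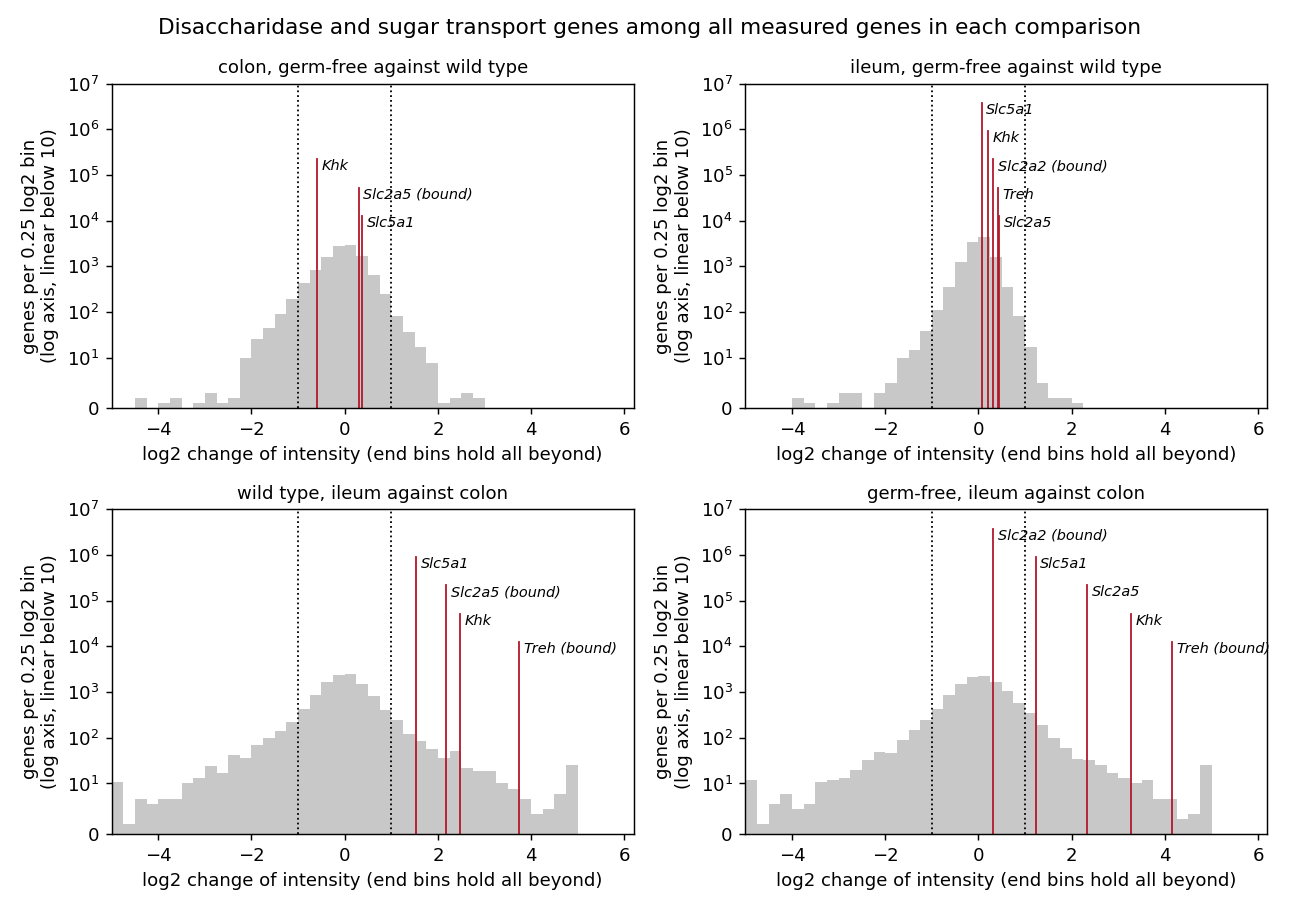
Log2 change of all measured genes (grey bars, genes per 0.25 log2 bin on an axis that is logarithmic above 10) and of the disaccharidase and sugar transport genes measured in each comparison (red lines, whose height carries no value). Dotted lines mark 2-fold; in the lower panels Treh, Khk, Slc2a5 and Slc5a1 lie right of the 2-fold line, and in the upper panels no red line reaches it.

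The promoter sequences of the 4 genes that stood higher in ileum are given here, since these genes differed together between regions, with that of Lct as the member whose probe set stayed under the floor. They are the 250 bases before the start site from RefSeq (GRCm38.p6), 5' to 3' along the gene's strand, and for Khk a stretch of 30 bases. The Khk window belongs to a start downstream of the first base of the gene as annotated above, so its 30 bases lie inside the annotated gene. The windows are Treh chr9:44672983-44673232 (+ strand), Slc5a1 chr5:33103969-33104218 (+), Slc2a5 chr4:150119094-150119343 (+), Lct chr1:128328319-128328568 (- strand) and Khk chr5:30921482-30921511 (+). Capitals mark matches, on either strand, to TTTAT (the core bound by caudal homeobox factors such as Cdx2), GATAA (the core bound by Gata factors), CACGTG (an E-box) and, as a further motif, GTTAAT. Matches to TTTAT and to the reverse of GATAA can overlap, as they do in the run TTTATC of Lct.
Treh: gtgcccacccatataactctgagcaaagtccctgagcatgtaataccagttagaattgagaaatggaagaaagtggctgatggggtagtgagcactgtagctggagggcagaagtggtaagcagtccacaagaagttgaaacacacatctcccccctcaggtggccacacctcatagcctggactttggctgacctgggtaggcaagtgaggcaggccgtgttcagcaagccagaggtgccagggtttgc
Slc5a1: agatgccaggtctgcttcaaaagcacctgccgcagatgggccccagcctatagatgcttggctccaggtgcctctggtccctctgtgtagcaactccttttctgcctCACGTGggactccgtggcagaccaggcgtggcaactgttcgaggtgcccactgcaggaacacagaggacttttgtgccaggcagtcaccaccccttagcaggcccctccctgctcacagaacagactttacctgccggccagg
Slc2a5: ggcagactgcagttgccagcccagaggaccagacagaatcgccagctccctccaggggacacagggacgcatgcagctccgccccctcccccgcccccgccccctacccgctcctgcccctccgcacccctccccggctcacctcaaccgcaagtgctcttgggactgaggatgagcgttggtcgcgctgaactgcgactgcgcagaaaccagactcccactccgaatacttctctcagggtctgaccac
Lct: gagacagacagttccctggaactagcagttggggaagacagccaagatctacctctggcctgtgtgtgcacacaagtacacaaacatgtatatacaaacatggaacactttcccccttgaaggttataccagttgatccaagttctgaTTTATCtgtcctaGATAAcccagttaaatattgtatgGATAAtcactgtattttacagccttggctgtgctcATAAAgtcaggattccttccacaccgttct
Khk: ccccgtCACGTGacaccGTTAATctggcgc

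All 7 genes had a promoter window in the table, and each motif was found in 2 of the 7. TTTAT was in Sis and Lct, against 37.3% of all 32851 windows of the same length. GTTAAT was in Sis and Khk (6.43% of all windows), GATAA in Lct and Slc2a2 (22.6%), and CACGTG in Slc5a1 and Khk (6.02%). The Khk window held CACGTG from 71 to 66 and GTTAAT from 60 to 55 bases before that downstream start, and the CACGTG of Slc5a1 lay 143 to 138 bases before its own start. Treh and Slc2a5, 2 of the genes that were higher in ileum, had none of these letters, while Lct held 2 TTTAT and 3 GATAA matches. A match is a description of the letters and not a bound site.

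Genes for factors that bind such motifs, and other regulators of sugar genes, were measured too. Cdx2 read 3154 and 2801 on the germ-free and wild type ileum arrays, against 3140 and 2415 on the germ-free and wild type colon arrays, and its other probe set went the opposite way in wild type mice (log2 -0.26). Gata4, which marks the proximal small intestine, read 87.5 and 82.4 on the germ-free and wild type ileum arrays, against 75.2 and 74.6 on the germ-free and wild type colon arrays. Gata5, another member of the family, read 315 and 282 on the germ-free and wild type ileum arrays, against 103 and 142 on the germ-free and wild type colon arrays. It was 3.06-fold higher in ileum in germ-free mice (log2 1.62) and at log2 0.99 in wild type mice, and its other probe set gave 2.34 and 3.07 log2. Mlxipl, which encodes the carbohydrate response factor ChREBP, was 5.65-fold higher in ileum in germ-free mice (1253 against 222) and 5.14-fold in wild type mice (1252 against 243). Its paralogue Mlxip went the other way, at 388 against 1280 in germ-free mice (3.30-fold lower in ileum) and 427 against 1267 in wild type mice (2.96-fold lower). Hnf4g, a nuclear receptor gene of enterocytes, was 2.85-fold higher in ileum in germ-free and 7.50-fold in wild type mice. Its 2 other probe sets were also higher in ileum, by 2.38 to 2.64 log2 in germ-free and 1.99 to 2.38 log2 in wild type mice. They did not share the larger contrast in wild type mice. Bcl11b, a zinc finger factor gene, was 2.24-fold and 2.20-fold higher, while its 3 other measured probe sets spanned 0.38 to 1.13 log2 in germ-free and 0.49 to 1.48 log2 in wild type mice. Among the 15 sensing and regulator genes measured, those past 2-fold in ileum numbered 5 higher and 3 lower in germ-free mice, and 3 higher and 1 lower in wild type mice. Over all measured genes 7.37% were higher and 5.88% lower in germ-free mice, and 6.04% and 5.93% in wild type mice.

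The rest of the sugar pathway split between the regions. Of 69 further genes listed, which include general regulators and transporter partners besides sugar genes proper, 56 had a probe set. In germ-free mice 49 were measured, of which 14 were at least 2-fold higher and 10 lower in ileum. In wild type mice 51 were measured, of which 14 were higher and 8 lower. Over all measured genes 7.37% were higher and 5.88% lower in germ-free mice, and 6.04% and 5.93% in wild type mice. The same shares stand beside the counts between regions of each list below. Of the 49 measured in both states, 12 (24.5%) were higher in ileum in both and 8 (16.3%) lower in both. Over 11555 genes measured in both, the shares were 3.73% and 4.01%. Since the list was chosen with earlier results of these data known, its larger shares can come from that choice and were not tested. The median of the list was 0.22 log2 in germ-free and 0.20 log2 in wild type mice.

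Among digestive enzymes, Mgam, the maltase-glucoamylase that shares the work of sucrase-isomaltase on starch fragments, was also higher in ileum. Unlike Treh, Mgam was well above the floor in colon. It read 5199 and 8425 on the germ-free and wild type ileum arrays, against 1853 and 1678 on the germ-free and wild type colon arrays, a 2.81-fold and a 5.02-fold excess in ileum. Among sodium-coupled transporters, the relatives of SGLT1 Slc5a4a, Slc5a4b and Slc5a11, the last a carrier of inositol and glucose, were under the floor on both colon arrays and at least 8.21-fold, 8.66-fold and 6.05-fold higher in ileum in germ-free mice, and at least 7.59-fold, 6.41-fold and 5.19-fold in wild type mice. The inositol carrier gene Slc5a3 was lower in ileum, by 4.09-fold in germ-free mice (593 against 2425) and 6.01-fold in wild type mice (364 against 2189). Pdzk1, a scaffold of apical transporters, read 2723 and 2667 on the germ-free and wild type ileum arrays, against 18.3 and 3.08 on the germ-free and wild type colon arrays, at least 43.6-fold and at least 42.7-fold higher in ileum. Pdzk1ip1, whose product binds that scaffold, was 5.65-fold lower in ileum in germ-free mice (202 against 1143) and 3.84-fold lower in wild type mice (204 against 783).

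Of the facilitative transporters outside the set, 1 was at least 2-fold higher and 2 lower in ileum in either state, of 6 measured in germ-free and 7 in wild type mice. Slc2a1, the widely expressed glucose transporter GLUT1, read 789 and 674 on the germ-free and wild type ileum arrays, against 4727 and 5345 on the germ-free and wild type colon arrays. It was 5.99-fold lower in ileum in germ-free and 7.93-fold lower in wild type mice. Slc2a13, an inositol carrier, was 2.76-fold and 2.33-fold lower in ileum in germ-free and wild type mice. Slc2a9, a urate and sugar carrier, was 2.06-fold higher in ileum in germ-free mice and 3.62-fold in wild type mice, but the germ-free value was under 2-fold with the values as deposited (log2 0.77) and with a common median (0.82). The other probe set of Slc2a9 was under 2-fold in both, at 0.998 log2 in germ-free and 0.958 log2 in wild type mice.

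Of the 6 measured genes listed for fructose and polyol metabolism, 1 (Tkfc) was at least 2-fold higher and 3 lower in ileum in either state. The 3 lower were Hk1, Hk2 and Txnip, which the list held besides its fructose and polyol enzymes. Tkfc, which phosphorylates glyceraldehyde from fructose downstream of ketohexokinase, read 1255 and 1011 on the germ-free and wild type ileum arrays, against 233 and 96.0 on the germ-free and wild type colon arrays, 5.38-fold and 10.5-fold higher in ileum. The hexokinases that start glucose breakdown were lower in ileum: Hk1 by 6.64-fold in germ-free and 8.21-fold in wild type mice, and Hk2 by 2.26-fold in germ-free and 3.01-fold in wild type mice. The arrestin-domain gene Txnip, a glucose-responsive gene, was 3.31-fold lower in ileum in germ-free and 2.05-fold lower in wild type mice, but its other probe set moved by -0.11 and -0.13 log2 and the wild type value was -0.99 with a common median. With a common 75th percentile Hk2 was at -0.94 log2 in germ-free mice. Of the 4 measured galactose genes (Galk2, Galt, Galm and Ugp2) 0 were past 2-fold between regions in either state.

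G6pc, the glucose 6-phosphatase catalytic subunit, read 957 and 879 on the germ-free and wild type ileum arrays, against 82.2 and 28.6 on the germ-free and wild type colon arrays. It was 11.6-fold higher in ileum in germ-free mice and at least 14.1-fold in wild type mice. Fbp1, a fructose bisphosphatase, was at least 12.8-fold and at least 11.4-fold higher in ileum in germ-free and wild type mice. Fbp2, its paralogue, and Slc37a4, the glucose 6-phosphate carrier, were 1.63-fold and 1.62-fold higher in germ-free mice, and 2.12-fold and 2.04-fold in wild type mice. Of the 7 measured genes of glucose release and gluconeogenesis, 2 were at least 2-fold higher in ileum in germ-free and 4 in wild type mice, and 0 were lower.

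**Figure D3:**
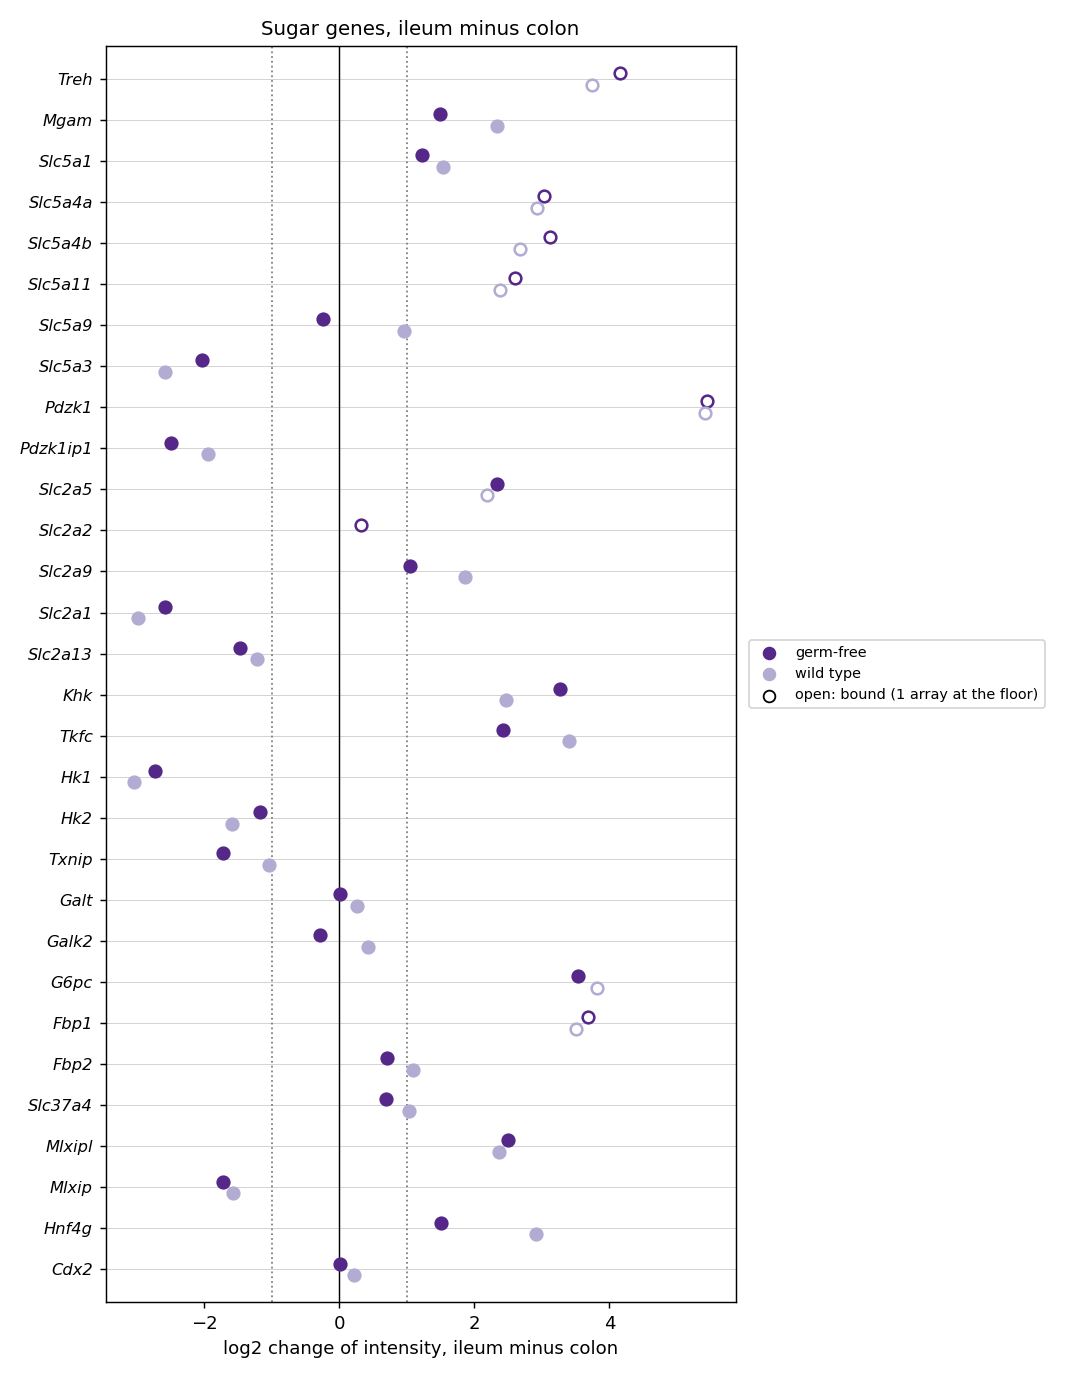
Log2 change between ileum and colon (ileum minus colon) of selected sugar genes in germ-free (dark) and wild type (light) mice, 1 pair of arrays each. Open circles are bounds with the colon array under the floor and dotted lines mark 2-fold; Treh, Slc2a5, Khk, Tkfc and G6pc lie far right, and Slc2a1, Slc5a3 and Hk1 far left, in both states.

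Markers of absorptive enterocytes were also higher in ileum. Of the 12, 10 were at least 2-fold higher in ileum in germ-free mice and 10 in wild type mice, with medians of 2.41 and 3.11 log2. Their summed intensity was 71412 and 71532 on the germ-free and wild type ileum arrays, against 23097 and 17652 on the germ-free and wild type colon arrays. None was at 0, and Mttp and Rbp2 were under the floor on both colon arrays. Colonocyte markers past 2-fold were 1 higher and 3 lower in ileum in germ-free mice and 5 lower in wild type mice, of 7. Of 7 enteroendocrine markers 3 were lower in ileum in either state, and of 4 proximal enterocyte markers 1 in germ-free and 2 in wild type mice. Paneth cell markers were higher in ileum for 4 of 4 measured in either state. Fibroblast and smooth muscle markers were higher for 0 of 4 in germ-free and 4 of 7 in wild type mice. Crypt stem and progenitor markers were higher for 1 of 5 in germ-free and 3 of 5 in wild type mice. For T lymphocyte markers the counts were 2 of 3 and 1 of 3, and for plasma and B cell markers 2 of 4 and 1 of 5. Of 7 goblet and 4 endothelial markers 0 were past 2-fold in either state. The part of cell content in the regional values was not tested.

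None of the measured genes of the set was past 2-fold between germ-free and wild type mice, in either region. In the colon 3 of the 6 were measured, with 0 at least 2-fold higher and 0 lower, where 1.29% of all 11746 measured genes were past 2-fold upward and 3.23% downward. In the ileum 5 were measured, again with 0 higher and 0 lower, where 0.23% of 11750 genes were higher and 0.698% lower. The median over the 6 genes was 0 log2 in colon and 0.26 log2 in ileum. Genes at the floor on both arrays counted as 0 change in it, among them Treh, Slc2a2 and Lct in colon. Over the measured genes of the set alone the medians were 0.30 log2 in colon and 0.32 log2 in ileum, each the value of a bound. Over all measured genes they were -0.01 and 0.03 log2. Since so few genes pass 2-fold at all, a count of 0 among the 3 measured in colon or the 5 measured in ileum lies near the background.

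In the ileum the 4 genes with a fold rather than a bound read higher on the germ-free array by their brightest probe set, by less than 1.5-fold. Slc2a2, the other measured gene, was above the floor on the germ-free array alone, so the floor fixed its direction. Over all genes, 6440 of 11750 measured also read higher on the germ-free array. Slc2a5 was at 387 against 284 (1.36-fold, log2 0.45), Treh at 1108 against 832 (1.33-fold, log2 0.41) and Khk at 2766 against 2401 (1.15-fold, log2 0.20). Slc2a2 was at least 1.25-fold higher. The brighter probe set of Slc5a1 gave a log2 change of 0.07 and the other -0.10, so its direction was not settled, and the brighter one also turned to -0.01 in the values as deposited. The SD between the changes of 2 bright probe sets of the same gene was 0.26 log2 in this comparison. This SD is the sole yardstick of error here. It covers disagreement between probe sets, and not error shared by a whole array or variation between mice. Treh and Slc2a5 exceeded it, while Khk and Slc5a1 did not. It comes from probe sets above the pooled 75th percentile of 259, so it does not cover one as dim as that of Slc2a2.

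In the colon the genes divided. Slc5a1 was at 3128 against 2404 by the brighter probe set (log2 0.38, higher in germ-free) and at 2795 against 2169 by the other (log2 0.37). Slc2a5 was at least 1.23-fold higher, at 76.9 against 45.1, with the wild type value under the floor, and at 0.77 log2 with the floor at the pooled 25th percentile or without one. Khk was lower, at 286 against 433 (1.51-fold, log2 -0.60). The probe set SD was 0.33 log2 in this comparison, which Slc5a1 and Khk exceeded, although Khk was at -0.32 and Slc5a1 at 0.12 under other scalings. Treh, Slc2a2 and Lct were under the floor on both colon arrays.

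The values in colon depend on how the 2 arrays were scaled to each other. The change of Slc5a1 was between 0.12 and 0.40 log2 over the alternatives and that of Khk between -0.60 and -0.32, with the direction kept in each. The median of all measured genes was -0.01, but 0.09 as deposited, 0.12 with a common median and -0.14 with a common 75th percentile. Among genes past 2-fold in colon, those higher in germ-free were 28.6%, 51.8% as deposited, 56.3% with a common median and 19.5% with a common 75th percentile. For ileum against colon in germ-free mice the shares higher in ileum were, in that order, 55.6%, 38.5%, 42.4% and 64.6%, and the medians of all measured genes 0.04, -0.11, -0.06 and 0.19.

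The difference between the germ-free change in colon and that in ileum was widest for Khk, at -0.80 log2 (-0.60 in colon and 0.20 in ileum), against a median of -0.02 over 11065 genes measured in both; it was -0.47 as deposited and -0.46 with a common median. It was 0.31 for Slc5a1, between 0.10 and 0.46 over the alternatives, and for Slc2a5 it was -0.15, but 0.32 with the floor at the pooled 25th percentile or without a floor. The differences were not tested, since each rests on 4 single arrays.

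Other sugar genes past 2-fold with the germ-free state were all in the colon. Of the 43 measured there, 3 were at least 2-fold higher and 3 lower on the germ-free array, with a median of 0.06 log2. Of the 50 measured in the ileum 0 were past 2-fold, with a median of 0.09 log2. Over all measured genes, 1.29% were higher and 3.23% lower in colon, and 0.23% and 0.698% in ileum. Calls were thus rarer in ileum among all genes too. The fructose pathway gene Tkfc was at 233 against 96.0 (2.43-fold higher), opposite to Khk, the enzyme before it. The sugar transporter gene Slc5a9 was at 355 against 173 (2.05-fold higher), and its 3 other measured probe sets were also higher, by 0.66 to 0.80 log2. Hnf4g was at 560 against 268 (2.09-fold higher), which its other 2 probe sets did not share (log2 -0.18 and 0.11).

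The lower genes in germ-free colon were a hexokinase, a transporter and a phosphatase. Hk2 was at 1508 against 3239 (2.15-fold lower), G6pc3, the widely expressed glucose 6-phosphatase, at 110 against 256 (2.32-fold lower), and Slc2a8, an intracellular sugar carrier, at 138 against 300 (2.18-fold lower). Slc2a8 was under 2-fold with the values as deposited (log2 -0.93) and with a common median (-0.90). In the ileum the value of Mgam was 5199 against 8425 (log2 -0.70), that of Hk2 667 against 1075 (-0.69) and that of Galk2, a sugar kinase, 178 against 278 (-0.64).

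**Figure D4:**
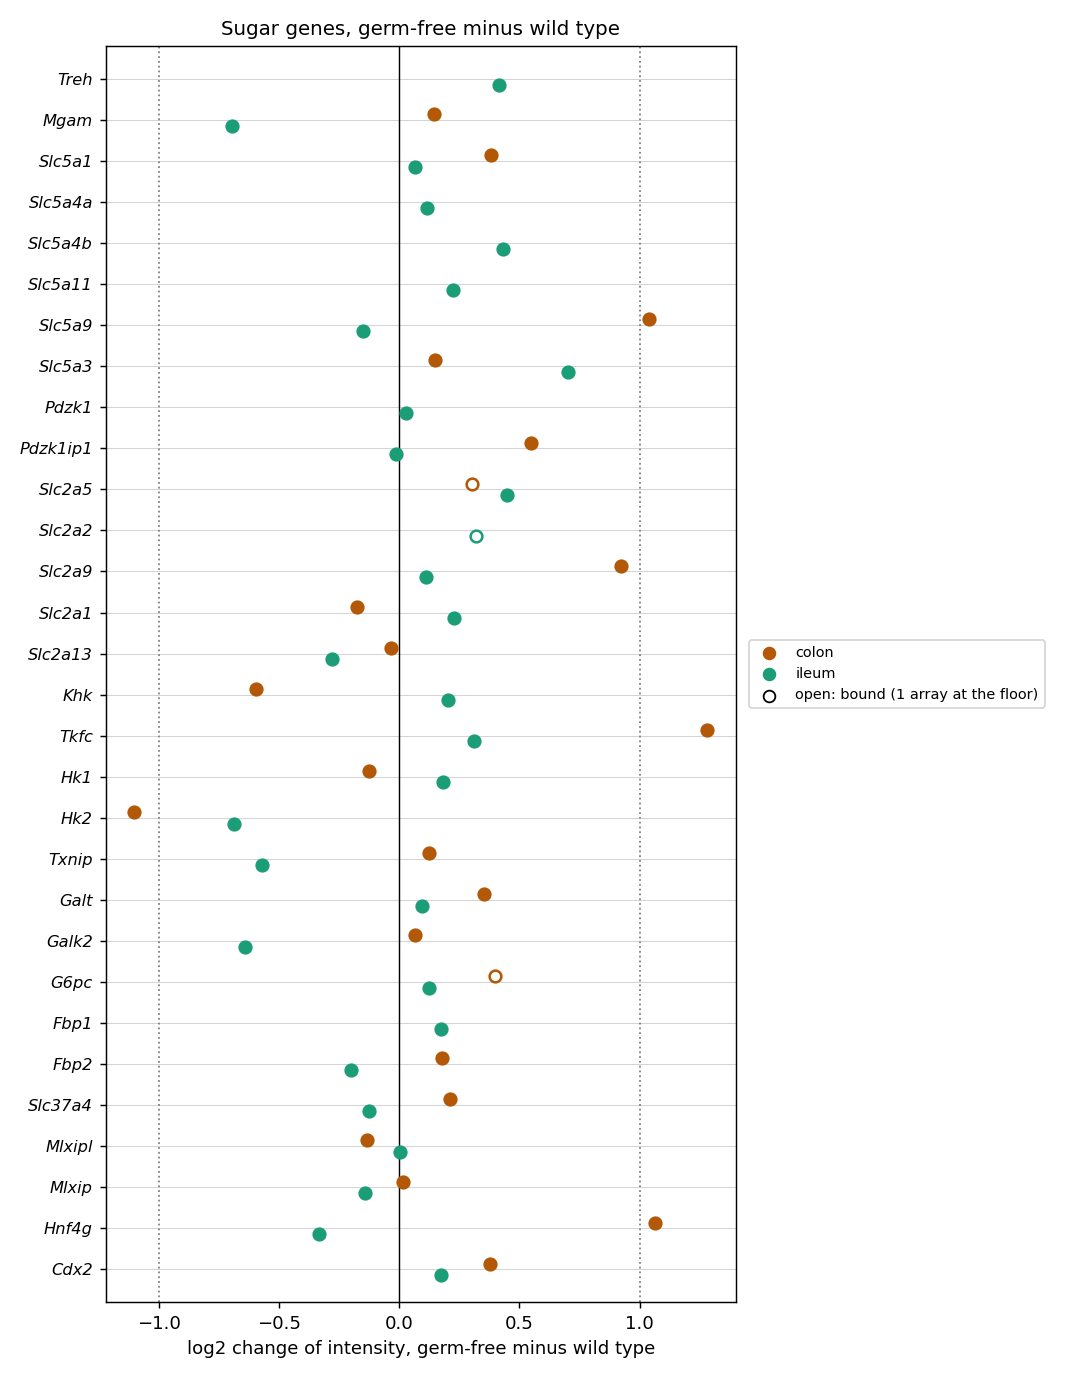
Log2 change with the germ-free state (germ-free minus wild type) of selected sugar genes in colon (brown) and ileum (green), 1 pair of arrays each. Open circles are bounds with the wild type array under the floor and dotted lines mark 2-fold; Tkfc, Hnf4g and Slc5a9 lie right of it and Hk2 left of it in colon, and no ileal point passes it.

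Marker lists of enterocytes differed in direction in germ-free colon. Of 10 measured absorptive enterocyte markers 4 were at least 2-fold higher and 0 lower there, with a median of 0.79 log2 and a summed intensity of 23097 against 17652, and Mttp and Rbp2 were under the floor on both arrays. The 5 ileal enterocyte markers summed to 14663 against 7413, with 1 (Fabp6) past 2-fold. The 4 proximal enterocyte markers summed to 7742 against 15053, with Adh1 3.37-fold lower. Colonocyte markers past 2-fold were 2 of 7, both lower, among them the water channel Aqp8 at 76.4 against 545, and their sum was 34759 against 41864. In the ileum 0 of 12 absorptive enterocyte markers were past 2-fold, and their sum was 71412 against 71532. Plasma and B cell markers summed to 1099 against 6772 in colon and 3014 against 12703 in ileum, with Cd79a under the floor on all arrays. In colon 2 of 3 measured T lymphocyte markers and 1 of 4 endothelial markers were at least 2-fold lower in germ-free mice, with medians of -1.30 and -0.79 log2. In ileum 1 of 4 measured Paneth cell markers, 1 of 3 T lymphocyte markers, 1 of 4 proximal enterocyte markers and 3 of 7 fibroblast and smooth muscle markers were lower. The part of cell content in the values of Slc5a1, Slc2a5 and Khk was not tested.

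The order of levels over the 4 arrays was the same for Treh and Slc2a5 and for the brighter probe set of Slc5a1, with germ-free ileum highest, then wild type ileum, then germ-free colon and then wild type colon. For Treh the last 2 were at the floor and have no order. For Khk the colon arrays were in the reverse order. The step between wild type ileum and the next lower array was the largest for each, at 3.74 log2 for Treh, 2.47 for Khk, 1.88 for Slc2a5 and 1.16 for Slc5a1. The steps between the ileum arrays were 0.41, 0.20, 0.45 and 0.07 for the same genes, of which 0.20 and 0.07 were within the probe set SD.

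Genes with the most similar profile were found among 7430 bright named genes by the root mean square distance of centred log2 values over the 4 arrays. Nearest to Slc5a1 were Nsdhl (0.02 log2), an enzyme of cholesterol synthesis, and Aco1 (0.04), an aconitase. Nearest to Slc2a5 were Plod2 (0.03), a lysyl hydroxylase, and Mreg (0.08). Nearest to Treh were the zinc transporter Slc30a2 (0.05) and Smlr1 (0.07), both under the floor on the colon arrays, and nearest to Khk were Reep6 (0.08) and Aldh18a1 (0.12), an enzyme of proline synthesis. A profile of 4 values is short, and many genes share the contrast between ileum and colon.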

How the data were processed

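The authors deposited linear intensities, 1 per probe set and array, and the series' design text names dCHIP2004 for the array analysis. Its background, model and scaling options are not stated there. Values below 1 were set to 1, the 64 control probe sets were set aside, and log2 values were taken. Over the brighter 50% of probe sets, array medians differed by 0.32 log2, over a limit of 0.25, so the arrays were quantile-normalized. The floor was the pooled median. Probe sets were named by the platform annotation: 34945 had 1 symbol, 932 had several and 9160 were unnamed here, and the first kind alone was used. The brightest probe set stood for each gene, and a gene counted as measured where either array of the pair was above the floor.

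Differences of log2 values were called at 2-fold, with no test. Named genes were all members, listed sugar genes past 2-fold (up to 4 per list and comparison), a few pathway neighbours and the 2 nearest profiles per bright member. Other list members named for a contrast, and the genes drawn in the plots, were chosen after their values were seen. The members and lists were chosen with earlier results of these data known. The steps were checked on simulated arrays. Python 3.11.15, numpy 2.4.6 and pandas 2.3.3 were used.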

Additional observations from a re-analysis of the deposited data

How the results depend on the processing

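The 9 alternatives were 3 other scalings, 3 other floors and 3 other choices of probe set. The 4 sugar genes higher in ileum were 3 to 5 in number in either state over these: Slc2a5 was under 2-fold with the floor at the 75th percentile, Slc2a2 was past it without a floor or with the floor at the 25th percentile, and in germ-free mice Slc5a1 was under it with the mean of its probe sets (log2 0.97) or the second brightest (0.71). The median over the 6 genes, ileum against colon, was 0.90 log2 in germ-free and 0.84 in wild type mice with the floor at the 75th percentile, and 2.62 and 2.29 without a floor, since values under the floor then differ by construction. No gene was past 2-fold with the germ-free state in either region under any of the 9, and no value of these genes past 2-fold changed sign.

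Counts over all genes moved most with the floor. In germ-free colon the 152 higher and 379 lower genes were 409 and 768 with the floor at the 25th percentile, 50 and 136 at the 75th and 1230 and 1634 without one, and 296 and 275 as deposited and 312 and 242 with a common median. In germ-free ileum 27 and 82 became 145 and 233, 5 and 22, and 886 and 971 over the same floors. For ileum against colon 883 and 705 in germ-free mice became 1374 and 1057, 419 and 384, and 2298 and 1852, and 725 and 712 in wild type mice became 427 and 395 at the 75th percentile and 1789 and 1794 without a floor. No paired analysis was possible because each group had 1 array. Signal over background limits Slc2a2 and Lct most.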
